A study of Mus musculus with 151 samples.

Results

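Prestin is the membrane motor protein of outer hair cells (OHCs), encoded by *Slc26a5*, and the cells in which it works carry a cortical lattice of spectrin and actin under the lateral membrane. The expression of *Slc26a5* and of 8 genes for spectrins and their partners (*Sptan1*, *Sptb*, *Sptbn1*, *Sptbn4*, *Epb41*, *Epb41l3*, *Ank1* and *Add1*) was examined here in single cochlear hair cells, and the question was whether the lattice genes differ where the motor gene is on. These 9 genes were chosen by name, were all among the 55291 genes in the count matrix, and are described in every cell.

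The study deleted the transcription factor gene *Tbx2* from inner hair cells (IHCs) after birth and sequenced single cells by Smart-Seq HT, a full-length cDNA method without molecular identifiers. The 55 P14_WT IHCs (postnatal day 14) and the 50 P30_WT IHCs (postnatal day 30) came from vGlut3-P2A-iCreER/+; Ai9/+ mice of the C57BL/6 strain. The 46 P14_iOHCs (induced OHCs, day 14) came from mice that also carried Tbx2 flox/-. All groups thus carried the Cre, which is driven from the locus of *Slc17a8* (vGlut3), and the Tdtomato reporter, and were given tamoxifen at P2 and P3. Only the mice of the iOHCs carried 1 deleted and 1 floxed allele of *Tbx2*. Tdtomato+ cells were picked by hand, and among the cells of the *Tbx2* mutants only the smaller ones were picked as iOHCs, so the group was selected by cell size. Each library is 1 cell and no label names its mouse, so each group counts as 1 sample. No test between groups was therefore made, and differences are set beside the spread over cells.

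Spectrin is a long heterodimer of an alpha and a beta chain, and tetramers of it cross-link short actin filaments into a net beneath the plasma membrane. Ankyrins tie beta-spectrin to membrane proteins, band 4.1 proteins and adducins strengthen or cap the junction of spectrin with actin, and tropomodulins cap the slow-growing end of the actin filament. In the OHC this net lies between the plasma membrane, which is packed with prestin, and the subsurface cisternae, and it is thought to give the cell body the elasticity that electromotility needs. IHCs also express spectrins and actins but lack the motor.

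Cells had total counts between 4326416 and 25035444, with a gap between 10267217 and 11814928 that leaves 51 cells below it (the lower set) and 100 above it (the upper set). The lower set held 23 of the P30_WT IHCs, 16 of the P14_WT IHCs and 12 of the P14_iOHCs. Levels are given as CPM (counts scaled to the same total in each cell) for a gene compared between cells, and as TPM (also scaled by exon length) for genes compared with each other. *Tbx2* was at 69.3 ± 87.4 CPM (SD, n = 46 cells) in P14_iOHCs, 260.0 ± 127 CPM (n = 55) in P14_WT IHCs and 193 ± 103 CPM (n = 50) in P30_WT IHCs, with ranges of 0 to 427, 49.5 to 754 and 3.29 to 420.2 CPM, and these counts over the whole gene do not show whether the floxed exon was lost. The 4 IHC markers (*Slc17a8*, *Otof*, *Slc7a14* and *Tbx2*) had a median sum of 317 CPM over P14_iOHCs, and of 5443 CPM over P14_WT IHCs. The 4 OHC markers other than prestin (*Ikzf2*, *Lbh*, *Sri* and *Ocm*) summed to a median of 44223 CPM against 869 CPM, and 45 of the 46 P14_iOHCs were above every P14_WT IHC. Supporting-cell markers (15 genes) summed to 0 to 10395 CPM in P14_iOHCs, with a median of 961, and to 0 to 1761 CPM in P14_WT IHCs, with a median of 16.1. By the mean of log2(CPM + 1) over these markers, 14 of the 46 P14_iOHCs scored above every P14_WT IHC. Values of the lattice genes are given with and without these 14 cells where they differ. Of the 14 markers with a ratio, 12 were more than 4-fold higher in P14_iOHCs than in P14_WT IHCs and 1 more than 4-fold lower, and their median log2 ratio was 2.98. Of the 12 markers that passed the filter on low counts, 10 were as far higher and 1 as far lower. Over the 13673 genes that passed it, these shares were 8.74% and 5.12%. *Gjb6*, for a connexin of supporting cells, was at 607 ± 905 against 87.6 ± 193 CPM, and *Prox1*, which marks pillar and Deiters' cells, had 0 counts in both groups.

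*Slc26a5* (ENSMUSG00000029015.9, GRCm38 chr5:21810655-21865604, minus strand) and *Sptb* (ENSMUSG00000021061.15, chr12:76580488-76710547, minus strand), the gene of the beta-spectrin first known from red blood cells, are the motor gene and the lattice gene with the clearest difference below. Their RefSeq promoter sequences (GRCm38.p6) are shown for this reason, as the 250 bases before the annotated start, chr5:21865605-21865854 and chr12:76710548-76710797, 5′ to 3′ on the minus strand, with CpG dinucleotides in capitals.
Slc26a5: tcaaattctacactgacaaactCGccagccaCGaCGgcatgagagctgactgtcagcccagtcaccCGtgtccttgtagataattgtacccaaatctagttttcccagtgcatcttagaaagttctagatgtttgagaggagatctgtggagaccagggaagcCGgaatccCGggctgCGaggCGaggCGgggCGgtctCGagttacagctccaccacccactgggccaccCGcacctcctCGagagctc
Sptb: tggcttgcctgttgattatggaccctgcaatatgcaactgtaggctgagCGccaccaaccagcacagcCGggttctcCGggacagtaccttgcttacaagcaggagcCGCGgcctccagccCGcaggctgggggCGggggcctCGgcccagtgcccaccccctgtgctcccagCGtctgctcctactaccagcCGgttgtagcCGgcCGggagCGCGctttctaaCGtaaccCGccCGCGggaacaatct
The *Slc26a5* stretch holds 13 CpGs at 56.0% GC and the *Sptb* stretch 18 at 65.2%, where the median of 32851 promoters was 6 CpGs at 52.4%. The T-box core GGTGTGA was searched on both strands in the windows from 250 bases before to 50 after the start. It was present in 3.98% of all windows and in 0 of the 16 windows of the 8 members that have an entry (*Ank1* has none). This says only that these letters are not in these windows.

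Because spectrin genes are alike, it matters whether reads of *Sptb* and *Sptbn1* (ENSMUSG00000020315.18, chr11:30099395-30268175, minus strand), the beta-spectrin of most non-erythroid cells, can be told apart. Their most similar stretch of 60 coding bases within an exon is shown, with the bases that differ in capitals. It lies in exon 3 of *Sptb* (chr12:76632386-76632445) and exon 2 of *Sptbn1* (chr11:30159300-30159359), read on the minus strand in GENCODE M21 transcripts.
Sptb: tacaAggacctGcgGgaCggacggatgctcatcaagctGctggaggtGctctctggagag
Sptbn1: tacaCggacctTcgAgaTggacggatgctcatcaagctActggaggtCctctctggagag
Even here 6 of the 60 bases differ. The longest identical run in an ungapped comparison of the 2 coding sequences was 30 bases, and no run of 100 bases was shared between the transcripts of any pair of the 9 members. *Slc26a5*, *Sptan1*, *Sptb*, *Epb41l3* and *Add1* shared no such run with any other gene. *Ank1* shared 3.21% of its runs of 100 bases with the antisense gene *Gm15816*, and *Sptbn4* 1.02% with *Gm20479* and *Gm44924*, so without a stated strand setting small parts of their counts are uncertain. For *Sptbn1* (with *Gm29237*) and *Epb41* (with *Gm10300*) the shared part was at most 0.25%.

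*Slc26a5* was counted in 46 of 46 P14_iOHCs. The lowest of these cells had 142 CPM, the median was 1033 CPM and the highest 2787 CPM, with a mean of 1146 ± 685 CPM (SD). In P14_WT IHCs it was at 0 in 53 of 55 cells and at 4.00 and 4.01 CPM in the other 2, and in P30_WT IHCs it was at 0 in 48 of 50 cells with 3 counts in all. The groups did not overlap: every P14_iOHC lay above every P14_WT IHC. This held for 2 of the 13673 genes considered (0.0146%), the other being the aquaporin gene *Aqp11*, which was named after its values were seen. The ratio of group means was 7864, or 12.94 on the log2 scale. Without the P14_WT IHC of the highest value the log2 ratio was 13.92, and summed counts gave a ratio of 7891 with a 95% interval of 6552 to 9592 that covers counting error only. The P30_WT IHCs had 0.0326 times the summed level of the P14_WT IHCs (exact 95% interval 0.00663 to 0.0978), which rests on the 3 counts above and on 111 counts in 2 P14_WT IHCs. Among P14_iOHCs *Slc26a5* was lower in the 14 cells of a high supporting-cell score (752 ± 421 CPM) than in the other 32 (1318 ± 712 CPM).

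**Figure D1:**
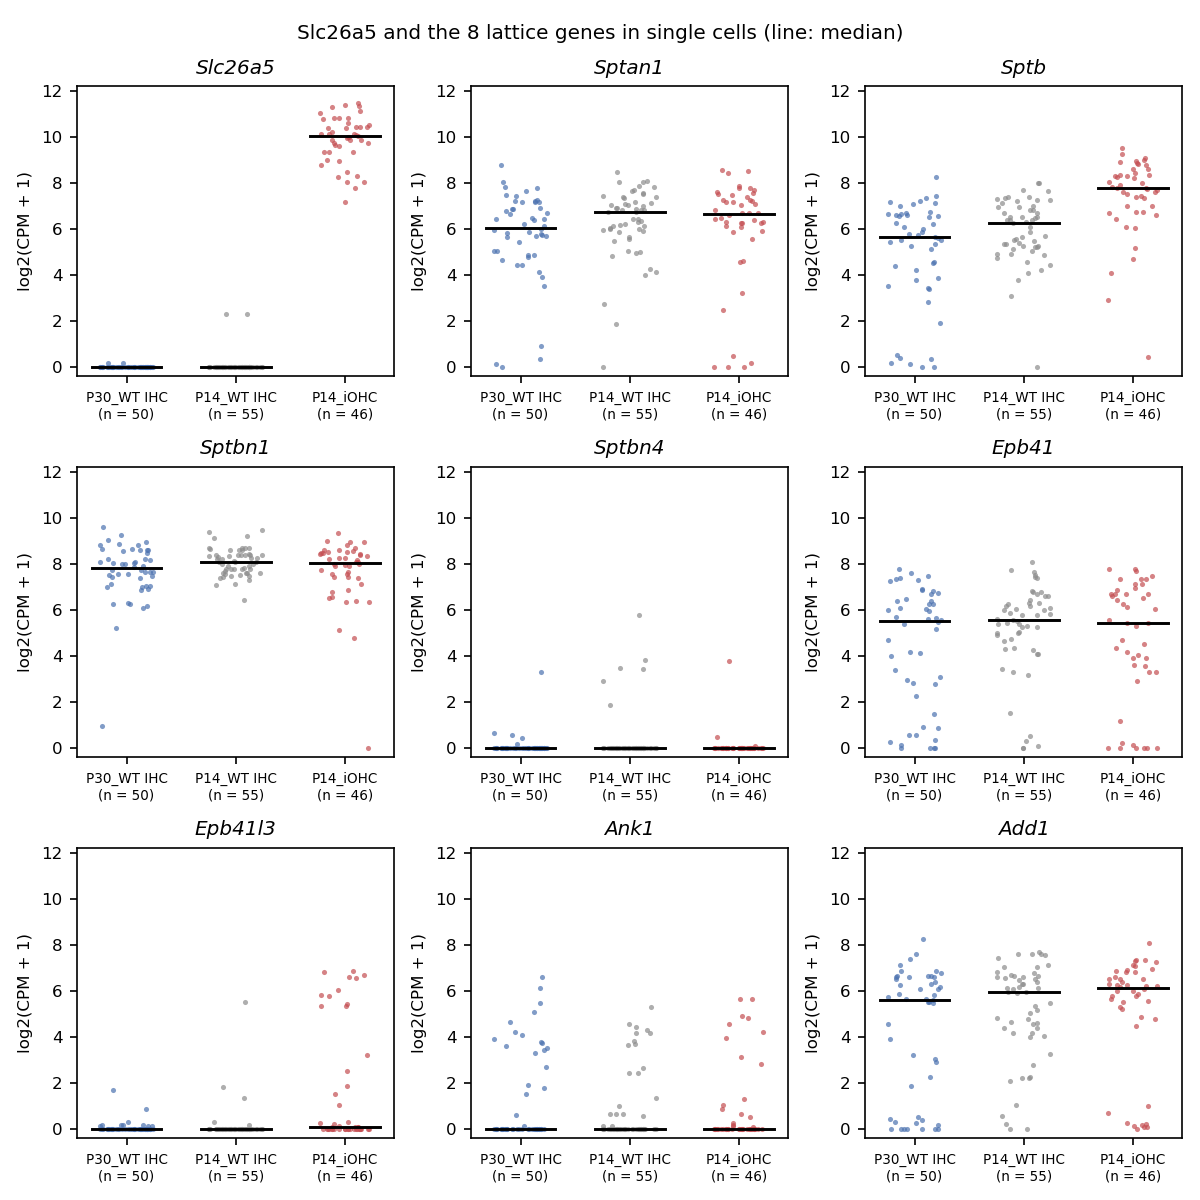
Levels of the 9 genes in single cells as log2(CPM + 1), 1 point a cell, with a line at the median of each group. All 46 P14_iOHCs sit above all IHCs for *Slc26a5*, the P14_iOHCs are shifted upwards for *Sptb*, and the groups overlap throughout for *Sptan1*, *Sptbn1*, *Epb41* and *Add1*.

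Of the 8 lattice genes, 2 were higher in P14_iOHCs by more than 2-fold in the ratio of means and passed the filter on low counts, *Sptb* and *Epb41l3*. *Epb41l3* was also past 4-fold. It did not pass the filter over the IHCs of both ages and entered through the P14_iOHCs, so its count as higher is partly set by the filter. Over the 13673 genes considered, 18.4% were more than 2-fold higher and 8.74% more than 4-fold higher, while 13.2% and 5.12% were as far lower. Of the 1895 genes past 4-fold, 63.1% were the higher ones in P14_iOHCs, a split that was 46.9% by medians over cells, 46.6% by means of log2(CPM + 1), 42.2% in the lower set of totals and 43.5% without the 14 cells of a high supporting-cell score. The 5 genes *Sptan1*, *Sptbn1*, *Epb41*, *Ank1* and *Add1* lay within 2-fold. *Sptbn4* was more than 4-fold lower in the means but did not pass the filter. The median log2 ratio of the 8 genes was 0.10, beside 0.08 over all genes considered. Over all cells the lattice list as a whole therefore lay where the average gene lay, and the differences were in single members. This was not so within the sets of totals. The 7 lattice genes that passed the filter had a median of -0.26 in the lower set, beside -0.01 over the genes considered there. In the upper set their median was 0.44, beside 0.09, so the value over all cells joins sets of opposite direction.

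*Sptan1* (ENSMUSG00000057738.13, chr2:29965560-30031451) encodes alpha-II spectrin, the alpha chain outside red blood cells. It was at 116 ± 92.3 CPM in P14_iOHCs (lowest 0, median 98.6, highest 375), at 109.8 ± 77.8 CPM in P14_WT IHCs (0, 104 and 355) and at 89.6 ± 81.5 CPM in P30_WT IHCs (0, 65.5 and 435). The 3 groups overlapped almost entirely, and a P14_iOHC was above a P14_WT IHC in 51.2% of pairs. The log2 ratio of 0.09 was not the same in the 2 sets of totals. It was -0.99 in the lower set (77.1 ± 60.3 CPM, n = 12, against 153 ± 83.4, n = 16) and 0.50 in the upper set (130.3 ± 98.2 CPM, n = 34, against 92.0 ± 68.8, n = 39). *Sptan1* was thus lower in the iOHCs of one set and higher in those of the other, by no more than the SD over the P14_WT IHCs in each.

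*Sptb* was above the median P14_WT IHC in most P14_iOHCs. It was at 250.3 ± 171 CPM in P14_iOHCs (lowest 0.364, median 220.4, highest 719.5), at 83.7 ± 61.7 CPM in P14_WT IHCs (0, 74.8 and 252) and at 62.5 ± 59.9 CPM in P30_WT IHCs (0, 48.4 and 301). Of the 46 P14_iOHCs, 39 were above the median P14_WT IHC and 20 were above the highest of them. As many cells above the highest P14_WT IHC were found for 1.11% of the genes considered. The ranges still overlapped: 5 P14_iOHCs were below the first quartile of the P14_WT IHCs (36.5 CPM), and these 5 had 142 to 2116 CPM of *Slc26a5*. The ratio of means was 2.99 (1.58 on the log2 scale), under the 4-fold limit, and a P14_iOHC was above a P14_WT IHC in 81.5% of pairs.

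The difference in *Sptb* was smaller in the lower set of totals than in the upper set. In the lower set the P14_iOHCs had 214 ± 195 CPM (n = 12) and the P14_WT IHCs 117 ± 69.6 CPM (n = 16), a log2 ratio of 0.87 that was under 2-fold. In the upper set they had 263 ± 163 CPM (n = 34) and 70.2 ± 53.4 CPM (n = 39), a log2 ratio of 1.91. Without the 14 cells of a high supporting-cell score the ratio was larger, at 1.79, since these cells had 160.1 ± 101 CPM and the other 32 had 290 ± 182 CPM. *Sptb* is a red blood cell gene, so the erythroid markers are given beside it. The 7 markers summed to 0 to 496 CPM in P14_iOHCs and 0 to 257 CPM in P14_WT IHCs with a median of 0 in both. *Slc4a1*, the anion exchanger that anchors the red cell lattice, had 1 count over all 46 P14_iOHCs and 1 over all 55 P14_WT IHCs.

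*Sptbn1* was the most abundant beta-spectrin of the IHCs and did not share the direction of *Sptb*. It was at 260.4 ± 142 CPM in P14_iOHCs (lowest 0, median 259.7, highest 639), at 293 ± 126 CPM in P14_WT IHCs (86.0, 271 and 697) and at 255 ± 157 CPM in P30_WT IHCs (0.953, 222 and 768). The difference of the means was well within 1 SD, with a log2 ratio of -0.17. In the 14 P14_iOHCs of a high supporting-cell score *Sptbn1* was at 338 ± 137 CPM and in the other 32 at 226 ± 132 CPM, the opposite of *Sptb*.

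Set beside each other per length, the means of *Sptb* and *Sptbn1* stood in the opposite order in the groups of day 14. In P14_WT IHCs *Sptbn1* was at 40.7 ± 17 TPM and *Sptb* at 16.7 ± 12.0 TPM, and in P14_iOHCs *Sptb* was at 45 ± 30 TPM and *Sptbn1* at 33.1 ± 18.7 TPM, a gap smaller than either SD. The order in P14_iOHCs rests on the 32 cells without a high supporting-cell score, where *Sptb* was at 51.7 ± 31.8 TPM and *Sptbn1* at 28.4 ± 17 TPM. In the 14 cells of a high score *Sptb* was at 29.5 ± 18.3 TPM and *Sptbn1* at 43.8 ± 18.7 TPM, the order of the IHCs. Within a cell, *Sptb* took 55.2 ± 27% of the summed TPM of *Sptb*, *Sptbn1*, *Sptbn4* and *Sptbn5* in P14_iOHCs (lowest 0.15%, median 59.8%, highest 100%), with 39.1 ± 24.3% in the 14 cells of a high score and 62.2 ± 25.3% in the other 32. It took 27.6 ± 16.3% in P14_WT IHCs (0, 24.8% and 67.5%) and 26.2 ± 22.2% in P30_WT IHCs (0, 24.3% and 98.4%). *Sptb* made up more than 50% in 28 of 46 P14_iOHCs, 9 of 55 P14_WT IHCs and 6 of 50 P30_WT IHCs. A P14_iOHC had the larger share in 79.2% of pairs with a P14_WT IHC, and 19 P14_iOHCs were above every one of them. The sum of these 4 genes was 78.3 ± 30.3 TPM in P14_iOHCs and 57.8 ± 22.1 TPM in P14_WT IHCs, a difference of less than 1 SD. In P14_iOHCs the rank correlation of *Sptb* with *Sptbn1* was -0.34 (n = 46 cells), against 0.12 in P14_WT IHCs (n = 55) and 0.23 in P30_WT IHCs (n = 50). In these P14_iOHCs the rank correlation with the number of detected genes was 0.46 for *Sptbn1* and -0.28 for *Sptb*. That with the supporting-cell score was 0.55 and -0.27. The part of these in the value of -0.34 was not tested.

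**Figure D2:**
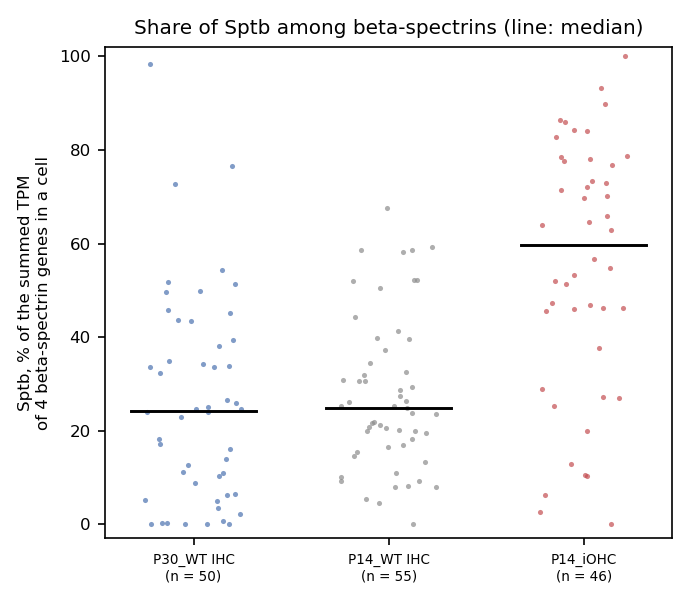
Share of *Sptb* in the summed TPM of *Sptb*, *Sptbn1*, *Sptbn4* and *Sptbn5* in each cell, 1 point a cell, with a line at the median. The median is 59.8% in the 46 P14_iOHCs, 24.8% in the 55 P14_WT IHCs and 24.3% in the 50 P30_WT IHCs, and the ranges overlap.

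*Sptbn4* (ENSMUSG00000011751.16, chr7:27356383-27447686, minus strand), the beta-IV spectrin known from the axon initial segment and nodes of Ranvier, was near the limit of detection. It was counted in 3 of 46 P14_iOHCs, 6 of 55 P14_WT IHCs and 5 of 50 P30_WT IHCs, and 1 cell held 95.2% of its 104 counts in P14_iOHCs. Its means of 0.285, 1.74 and 0.21 CPM rest on such cells. The log2 ratio of P14_iOHCs over P14_WT IHCs was -2.61, and it was -7.43 without the highest P14_iOHC and -1.47 without the highest P14_WT IHC, so no size can be read from it.

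The 2 band 4.1 genes differed from each other. *Epb41* (ENSMUSG00000028906.16, chr4:131923413-132075321, minus strand), for the protein 4.1R that binds the spectrin-actin junction, was at 66.0 ± 66.6 CPM in P14_iOHCs (lowest 0, median 42.2, highest 219), at 62.3 ± 58.4 CPM in P14_WT IHCs (0, 46.7 and 273) and at 57.1 ± 60.2 CPM in P30_WT IHCs (0, 44.97 and 216). Its groups overlapped fully at a log2 ratio of 0.08, which was -0.89 in the lower and 0.44 in the upper set of totals. The 14 P14_iOHCs of a high supporting-cell score had 105.8 ± 69.8 CPM of *Epb41* and the other 32 had 48.6 ± 58.0 CPM, with a rank correlation of 0.53 with the score over the 46 cells. Without the 14 cells its log2 ratio was -0.36. *Epb41l3* (ENSMUSG00000024044.18, chr17:69075683-69289989), for protein 4.1B, was counted in 24 of 46 P14_iOHCs (52.2%, exact 95% interval 36.9 to 67.1%, which treats cells as independent draws and leaves out differences between mice), 5 of 55 P14_WT IHCs (9.09%, 3.02 to 20.0%) and 10 of 50 P30_WT IHCs (20.0%, 10.0 to 33.7%). Its means were 18.1 ± 34.7, 0.899 ± 6.07 and 0.082 ± 0.34 CPM, with medians of 0.0594, 0 and 0 CPM. A single P14_WT IHC held 91.7% of the 769 counts of its group at 44.99 CPM, and 8 P14_iOHCs were above it.

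The ratio of means for *Epb41l3* was 20.1 (4.33 on the log2 scale), and without that P14_WT IHC the log2 ratio was 7.78. The level lay mostly in the cells of a high supporting-cell score. *Epb41l3* was at 51.8 ± 41.5 CPM in those 14 cells, counted in 13 of them, and at 3.32 ± 16.8 CPM in the other 32, counted in 11. Without the 14 cells the log2 ratio was 1.89, under the 4-fold limit. Its rank correlation with the score over the 46 P14_iOHCs was 0.67, and that with the number of detected genes 0.57, and the part of RNA from other cells in this difference was not tested.

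*Ank1* (ENSMUSG00000031543.18, chr8:22974844-23150497), for ankyrin-R, was counted in a minority of cells in each group. It was found in 18 of 46 P14_iOHCs, 20 of 55 P14_WT IHCs and 20 of 50 P30_WT IHCs, with a median of 0 CPM in all 3 groups and maxima of 49.4, 37.9 and 97.5 CPM. The means were 4.98 ± 12.0, 3.44 ± 7.65 and 7.86 ± 18.2 CPM. Among cells of day 14 the log2 ratio was 0.53, and 0.21 without the highest P14_iOHC, within the spread over cells. In the lower set of totals *Ank1* was past 2-fold, with a log2 ratio of 1.54 (7.53 against 2.59 CPM), and in the upper set it was at 0.10 (4.08 against 3.79 CPM). It was 0.64 without the 14 cells of a high supporting-cell score.

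*Add1* (ENSMUSG00000029106.14, chr5:34573664-34632308), for alpha-adducin, a capping protein that recruits spectrin to actin, was at 71.5 ± 56.7 CPM in P14_iOHCs (lowest 0, median 69.2, highest 267), at 65.9 ± 59.3 CPM in P14_WT IHCs (0, 60.04 and 206) and at 56.3 ± 60.8 CPM in P30_WT IHCs (0, 47.7 and 307). The groups overlapped at a log2 ratio of 0.12. The genes *Sptan1*, *Sptbn1*, *Epb41* and *Add1* were all counted in 36 of 46 P14_iOHCs (78.3%), 50 of 55 P14_WT IHCs (90.9%) and 39 of 50 P30_WT IHCs (78%). Any count was enough here, and P14_iOHC-20 for example held 0.0531 CPM of *Add1*. Most cells with and without the motor thus had some count of each of these core genes, which does not give their level.

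The order of the members by mean level per length differed between the groups mainly in *Slc26a5*, *Sptb* and *Epb41l3*. In P14_WT IHCs it ran from *Sptbn1* (40.7 TPM) through *Sptan1* (20.1), *Add1* (18.9), *Sptb* (16.7) and *Epb41* (9.53) to *Ank1* (0.634), *Sptbn4* (0.38), *Epb41l3* (0.186) and *Slc26a5* (0.12). *Sptan1*, *Add1* and *Sptb* did not differ beyond their spread over cells there. In P14_iOHCs *Slc26a5* came first at 822 ± 507 TPM, place 122 among all genes with a length, and *Sptb* followed at 45 TPM, then *Sptbn1* (33.1), *Sptan1* (19.5), *Add1* (18.7), *Epb41* (9.34), *Epb41l3* (3.41), *Ank1* (0.843) and *Sptbn4* (0.0705). Each P14_iOHC held more *Slc26a5* per length than *Sptb*, *Sptbn1*, *Sptbn4* and *Sptbn5* together. The ratio of *Slc26a5* to their sum ran from 1.66 to 34.96, with a median of 10.4.

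Across the 46 P14_iOHCs, no lattice gene followed *Slc26a5* closely. Spearman's rho of log2(CPM + 1) with *Slc26a5* was 0.29 for *Ank1*, 0.21 for *Sptb*, 0.00 for *Sptbn4*, -0.04 for *Sptan1*, -0.30 for *Epb41l3*, -0.31 for *Epb41*, -0.34 for *Sptbn1* and -0.44 for *Add1*. Pearson's r lay between -0.40 for *Add1* and 0.28 for *Ank1*. These are descriptions over cells that share a preparation, with *Slc26a5* itself at -0.25 with the number of detected genes. Among 4377 genes with at least 10 CPM on average and a count in at least 80% of these cells, rho with *Slc26a5* ran from -0.34 at the 5th to 0.36 at the 95th percentile. *Sptb* was at the 84.3rd percentile of these genes, *Sptan1* at the 44.4th and *Add1* at the 1.05th. Given the number of detected genes, rho was 0.32 for *Ank1*, 0.14 for *Sptb*, 0.07 for *Sptan1* and -0.02 for *Sptbn4*. It was -0.19 for *Epb41l3*, -0.20 for *Epb41*, -0.26 for *Sptbn1* and -0.45 for *Add1*. With the supporting-cell score, *Slc26a5* had a rho of -0.35, *Epb41l3* 0.67, *Sptbn1* 0.55, *Epb41* 0.53 and *Sptan1* 0.28. *Add1* had 0.12, *Ank1* and *Sptbn4* -0.09 and *Sptb* -0.27. The part of the score in the values with *Slc26a5* was not tested. Among the 12 P14_iOHCs of the lower set *Sptb* had a rho with *Slc26a5* of -0.28, against 0.29 in the 34 of the upper set. In the same sets *Add1* was at -0.42 and -0.46 and *Sptan1* at -0.49 and 0.07.

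**Figure D3:**
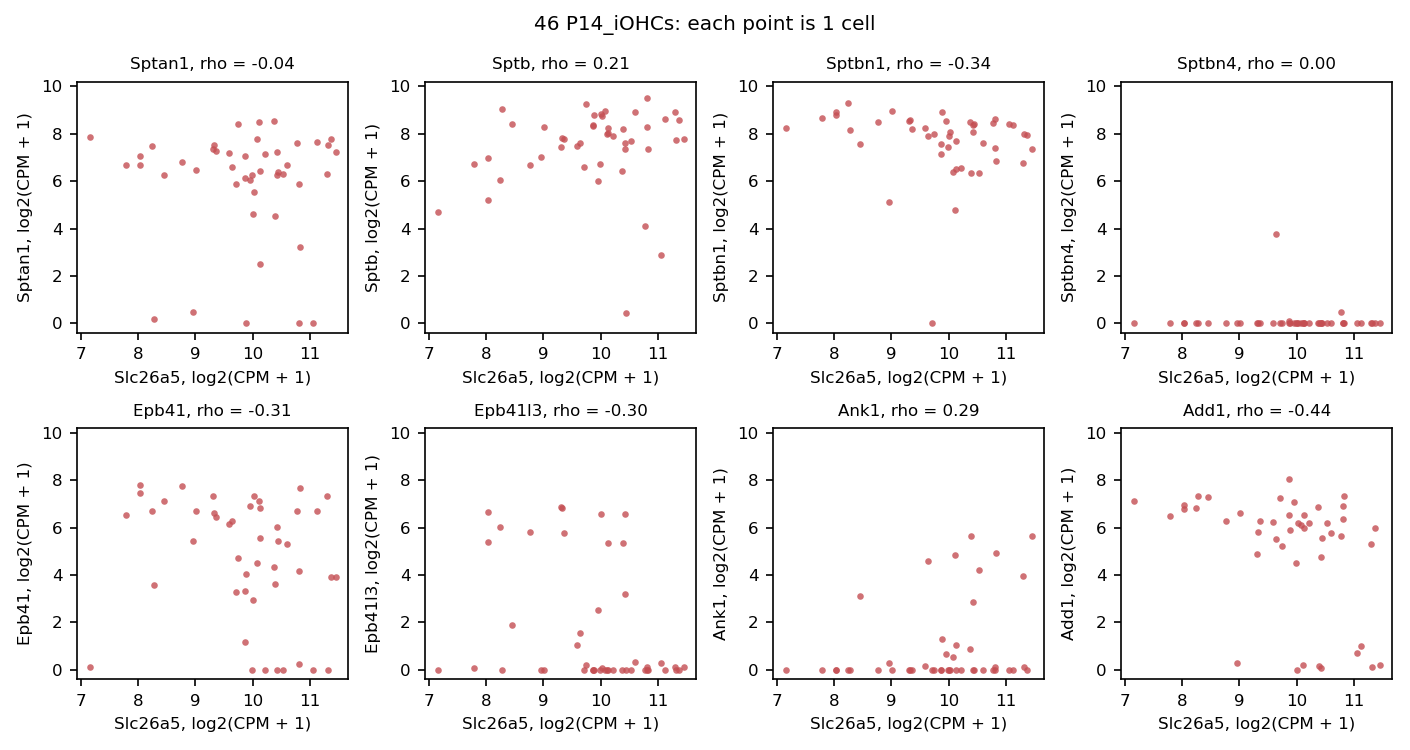
Each of the 8 lattice genes against *Slc26a5* in the 46 P14_iOHCs, both as log2(CPM + 1), 1 point a cell, with Spearman's rho above each panel. No panel shows a tight relation, and rho runs from -0.44 for *Add1* to 0.29 for *Ank1*.

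The genes whose levels were most like *Slc26a5* over these cells were *Sri* (sorcin, a calcium-binding protein and an OHC marker, rho 0.66), *Gm5737* (0.66), *Reep5* (0.65), *Slk* (0.64) and *Lpin2* (0.64). The least like were *Spcs2* (-0.62), *Polr3k* (-0.60) and *Zscan26* (-0.57). *Lpin2* was at 1208 ± 681 CPM in P14_iOHCs and 138 ± 90.4 CPM in P14_WT IHCs, and *Slk* at 310 ± 217 and 108 ± 77.9 CPM. The OHC markers *Ikzf2* (0.42), *Lbh* (0.41) and *Ocm* (0.40) had a larger positive rho with *Slc26a5* than any lattice gene, while *Add1* was at -0.44. Given the number of detected genes, rho was 0.36 for *Ikzf2*, 0.35 for *Lbh* and 0.32 for *Ocm*, beside 0.32 for *Ank1*.

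A list of 20 further genes of the spectrin-actin skeleton shows where other parts of the net differed. Of the 14 that passed the filter, 6 were more than 2-fold higher in P14_iOHCs than in P14_WT IHCs and 1 was more than 2-fold lower, beside 18.4% and 13.2% of all genes considered. Past 4-fold higher were 5 of the 14, beside 8.74%. *Ank2*, *Epb41l1* and *Tpm4* did not pass the filter over the IHCs of both ages and entered the 14 through the P14_iOHCs. Their count as higher is therefore partly set by the filter. These 14 genes had a median log2 ratio of 0.54 beside 0.08 over all genes considered. Without the 14 P14_iOHCs of a high supporting-cell score, 5 of the same genes were more than 2-fold higher and 2 more than 2-fold lower. The median of the 14 genes was 0.19. Past 4-fold higher were then *Ank2* and *Epb41l1*, at 1.24 and 1.72 CPM, and past 4-fold lower *Mpp1* (log2 ratio -3.66). *Tmod1*, *Dmtn* and *Tpm4* had log2 ratios of 1.71, 1.01 and 1.10. Of the 12650 genes that passed the filter without these cells, 619 were past 4-fold higher and 804 lower. Over all P14_iOHCs, past 4-fold and higher were *Tmod1*, *Ank2*, *Dmtn*, *Epb41l1* and *Tpm4*, and none of those that passed was as far lower. Below the filter, *Sptbn5* and *Tmod4* were past 4-fold higher and *Add2* past 4-fold lower, each counted in at most 5 cells a group. *Add3* (gamma-adducin) was 3.01-fold higher, with 93.0 ± 71.96 CPM in the 14 P14_iOHCs of a high score, 22.6 ± 37.99 CPM in the other 32 and 14.6 CPM in P14_WT IHCs. Without the 14 cells *Add3* had a log2 ratio of 0.63, under 2-fold, and its rank correlation with the score was 0.75. *Mpp1*, for the red cell protein p55, had means of 2.21 and 6.76 CPM in the P14_iOHCs and the P14_WT IHCs. It was counted in 6 of the 14 P14_iOHCs of a high score and in 5 of the other 32. A P14_iOHC was above a P14_WT IHC in 51.4% of pairs, so the lower mean was not a shift over cells.

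*Tmod1*, the tropomodulin of the red cell and lens skeleton, was at 145 ± 202 CPM in P14_iOHCs (lowest 0, median 72.1, highest 932) and at 16.9 ± 38.2 CPM in P14_WT IHCs (0, 0 and 173), a log2 ratio of 3.11. It was counted in 38 of 46 and 21 of 55 cells. It was at 351 ± 252 CPM in the 14 cells of a high supporting-cell score and at 55.1 ± 70.7 CPM in the other 32. Of its runs of 100 bases, 30.1% are shared with other genes such as *Tstd2*, so its level is less certain than those of the lattice members. *Tmod2* and *Tmod3* differed little at day 14 over all cells, with log2 ratios of -0.04 and 0.15. The direction of *Tmod2* was not the same in the sets of totals. It was at 421 ± 138 CPM in P14_iOHCs and 255 ± 95.2 CPM in P14_WT IHCs of the lower set. In the upper set it was at 288 ± 130 and 363 ± 188 CPM. Its rho with *Slc26a5* over the P14_iOHCs was 0.40.

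*Dmtn* (dematin, an actin-bundling protein of the junction) was at 27.3 ± 49.8 against 5.32 ± 22 CPM. *Ank2* (ankyrin-B) was at 20.4 ± 59.1 against 0.0322 ± 0.226 CPM and *Epb41l1* (protein 4.1N) at 7.01 ± 17.1 against 0.0223 ± 0.166 CPM. *Tpm4* was at 13.5 ± 25.2 against 0.399 ± 2.35 CPM. All of these had a median under 1 CPM in both groups, and they were counted in 25, 19, 14 and 21 of the 46 P14_iOHCs. In the 14 cells of a high score *Dmtn* was at 65.1 ± 55.5 CPM and *Ank2* at 64.1 ± 94.9 CPM, against 10.7 ± 37.2 and 1.24 ± 6.77 CPM in the other 32. The supporting-cell markers were high in the same cells, and their part in the result was not tested.

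*Ank3* (ankyrin-G), the main ankyrin of all groups per length, was lower in P14_iOHCs. It was at 169 ± 105 CPM there (lowest 38.8, median 145, highest 456) and at 280.4 ± 131 CPM in P14_WT IHCs (53.8, 264 and 712), and a P14_iOHC was above a P14_WT IHC in 24.6% of pairs. The ankyrins summed to 12.7 ± 6.12 TPM in P14_iOHCs and 20.2 ± 9.20 TPM in P14_WT IHCs. *Ank3* took a mean of 84.3 ± 26.3% and 97.1 ± 6.26% of these sums, with medians of 99.8% and 100%. *Ank3* was at 108 ± 70.9 CPM in the 14 P14_iOHCs of a high supporting-cell score and at 195 ± 107 CPM in the other 32. *Ank2* was at 64.1 ± 94.9 and 1.24 ± 6.77 CPM in these cells. Without the 14 cells the log2 ratio of *Ank3* was -0.52, against -0.73 over all cells. The part of the score in the mean share was not tested.

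The actins also differed in their make-up. *Actg1* (gamma-actin) was at 858 ± 522 CPM in P14_iOHCs and 577 ± 266 CPM in P14_WT IHCs, and *Actb* (beta-actin) at 352 ± 271 and 505 ± 293 CPM. *Actg1* took 72.2 ± 14.2% of the summed TPM of both in P14_iOHCs and 55.1 ± 13.5% in P14_WT IHCs, above 50% in 43 of 46 and 35 of 55 cells. Their sum of 1025 ± 665 and 1002 ± 481 TPM differed by far less than 1 SD. Both actins were higher in the 14 P14_iOHCs of a high supporting-cell score than in the other 32, *Actg1* at 1190.5 ± 489 against 713 ± 473 CPM and *Actb* at 609 ± 268 against 239 ± 182 CPM, with rank correlations of 0.59 and 0.52 with the score. *Actg1* took 66.0 ± 12.4% of the sum in the 14 cells and 74.9 ± 14.2% in the other 32. The direction of *Actb* was not the same in the sets of totals, with 334 ± 314 CPM over P14_iOHCs and 210.1 ± 113 CPM over P14_WT IHCs in the lower set and 358 ± 259 and 626 ± 256 CPM in the upper set. A share of 29.9% of the runs of *Actg1* recurs in other genes such as *Actg-ps1*, which makes its level less certain.

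**Figure D4:**
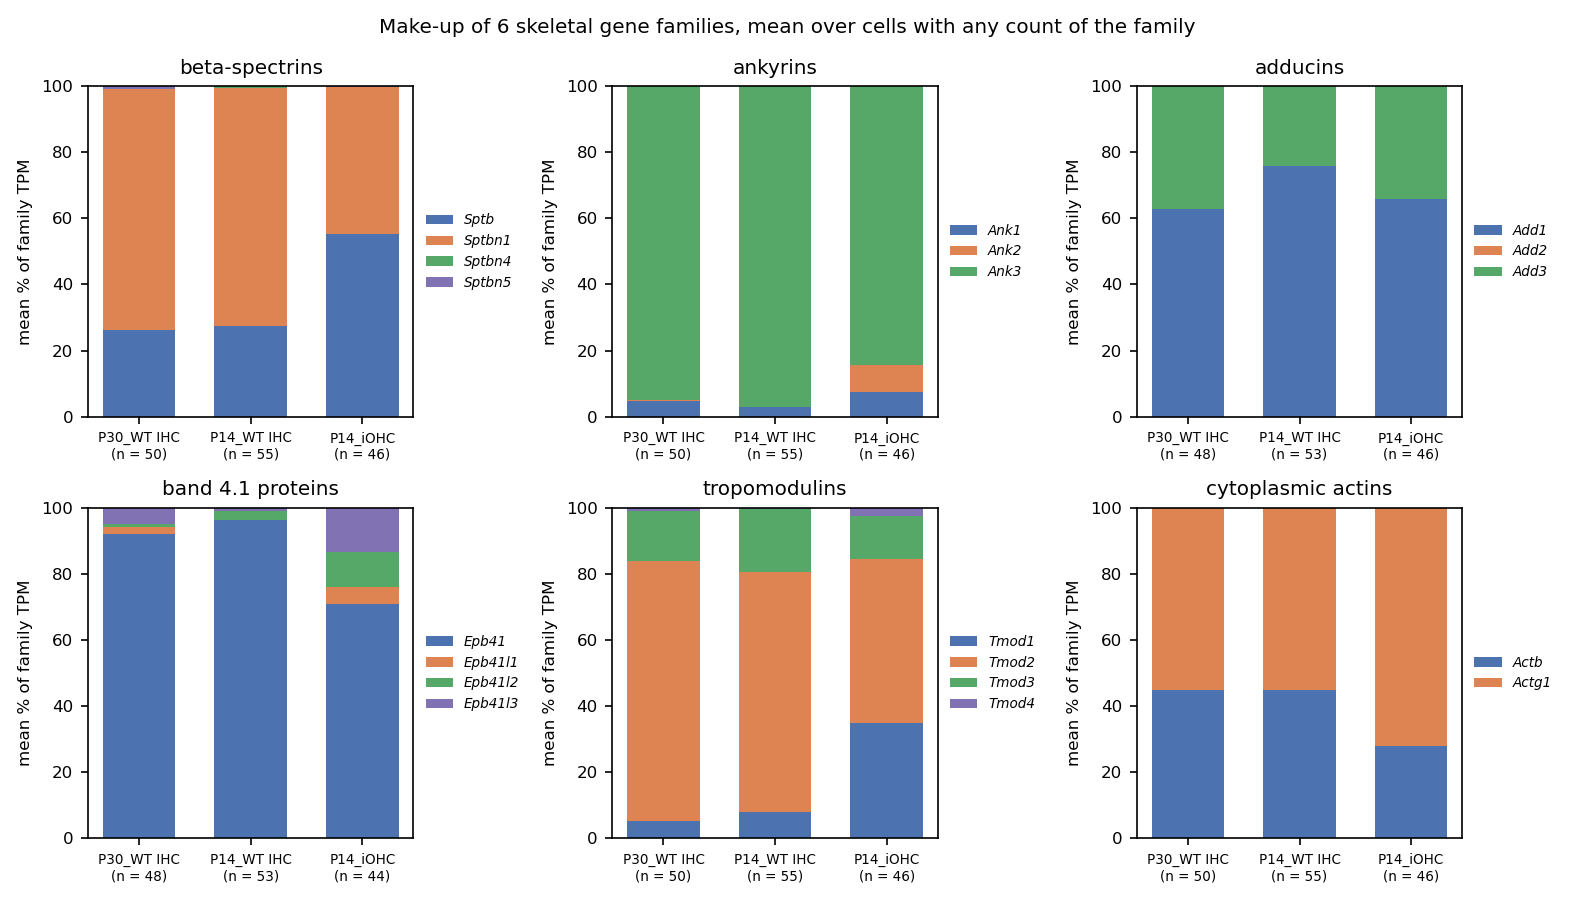
Mean share of each gene in the summed TPM of its family, over the cells of a group with any count of the family (n under each bar). *Sptb* takes 55.2% of the beta-spectrin genes shown in P14_iOHCs and 27.6% in P14_WT IHCs, and *Actg1* 72.2% and 55.1% of the actins. *Tmod1* takes 34.9% and 7.86% of the tropomodulins, a share not split by supporting-cell score. Its level was 351 ± 252 CPM in the 14 P14_iOHCs of a high score and 55.1 ± 70.7 CPM in the other 32.

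In the family of the motor itself, *Slc26a5* was the only gene with a count in more than 50% of cells of any group. The 10 other SLC26 anion transporter genes reached at most 18.9 ± 36.8 CPM, for the sulfate transporter gene *Slc26a2* in P14_iOHCs, and 3 of the 10 passed the filter at day 14 (*Slc26a2*, *Slc26a6* and *Slc26a11*). *Slc26a4* (pendrin) had 0 counts in both groups of day 14, and *Slc26a7* had 471 counts in P14_iOHCs of which 99.6% were in 1 cell. Means more than 4-fold apart were also seen for *Slc26a1*, *Slc26a3* and *Slc26a10*, each below the filter and counted in at most 8 cells a group.

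Of 7 genes for reported partners of prestin and of the lateral wall, 5 passed the filter. Their median log2 ratio was -0.19, beside 0.08 over all genes considered. None was past 4-fold, beside 8.74% higher and 5.12% lower of all genes considered. More than 2-fold higher was 1 of the 5 and more than 2-fold lower 1, beside 18.4% and 13.2%. The higher one, *Map1s*, for a microtubule-associated protein, was at 19.6 ± 51.2 CPM in P14_iOHCs and 9.08 ± 19.8 CPM in P14_WT IHCs (2.15-fold), and it was counted in 20 of 46 and 23 of 55 cells. Its log2 ratio of 1.11 was 0.50, under 2-fold, without the highest P14_iOHC. A P14_iOHC was above a P14_WT IHC in 52.9% of pairs. *Calm2*, for the calcium sensor calmodulin that binds prestin, was the most abundant of them and was lower in P14_iOHCs. *Calm2* was at 6466 ± 3982 against 18865 ± 4975 CPM, and *Calm3* at 267 against 232 CPM, with a log2 ratio of 0.20. The fructose transporter gene *Slc2a5*, whose protein was once proposed as part of the motor, had 2 counts in P14_iOHCs and 0 in P14_WT IHCs.

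Between the IHCs of day 14 and day 30, both without the motor, the main lattice genes lay close together. The P14_WT IHCs are the same cells as above, so both comparisons share them. *Sptan1*, *Sptb*, *Sptbn1*, *Epb41* and *Add1* had log2 ratios of P30_WT IHCs over P14_WT IHCs of -0.29, -0.42, -0.20, -0.12 and -0.23, all within the spread over cells. *Ank1* was more than 2-fold higher in the means (1.19), where 8.83% of the 12946 genes considered were as far higher and 2.26% past 4-fold. It was at 0.81 without the highest P30_WT IHC. The 2 genes more than 2-fold lower, *Sptbn4* and *Epb41l3*, were also past 4-fold and did not pass the filter, where 10.4% and 3.06% of the genes considered were as far lower. *Epb41l3* was counted in 10 of 50 P30_WT IHCs and 5 of 55 P14_WT IHCs, and its log2 ratio of -3.45 was -0.00 without the highest P14_WT IHC and 0.27 in the lower set of totals. The median of the 8 was -0.26 and that of all genes considered -0.03. The log2 ratio of *Sptb* was -1.05 in the lower and -0.05 in the upper set of totals, and that of *Sptan1* -0.98 and 0.12.

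In the wider skeleton at day 30, *Actb* and *Actg1* were lower (236 ± 169 against 505 ± 293 CPM, and 288 ± 171 against 577 ± 266 CPM), as was *Tpm1* (108 ± 76.7 against 223 ± 95.9 CPM). In the lower set of totals the actins lay closer together, with *Actb* at 196 ± 123 (n = 23) against 210.1 ± 113 CPM (n = 16) and *Actg1* at 315 ± 147 against 406 ± 214 CPM. In the upper set *Actb* was at 269.8 ± 196 (n = 27) against 626 ± 256 CPM (n = 39) and *Actg1* at 265 ± 189 against 646 ± 256 CPM. Within P14_WT IHCs the rank correlation with the total count was 0.70 for *Actb* and 0.54 for *Actg1*, and the part of the total in the difference was not tested. *Tmod2* was higher, at 648 ± 331 against 332 ± 172 CPM, in 80.8% of pairs. None of the 11 skeleton genes that passed the filter was past 4-fold. Means more than 4-fold apart were seen below it for *Sptbn5*, *Epb41l1*, *Ank2*, *Tmod4* and *Tpm4*, which were higher, and *Epb41l2*, which was lower, each with over 50% of its counts in 1 cell in one of the groups or both. *Slc26a1* was past 4-fold and passed the filter, at 6.65 ± 20.9 against 0.813 ± 5.49 CPM, counted in 12 of 50 and 3 of 55 cells.

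**Figure D5:**
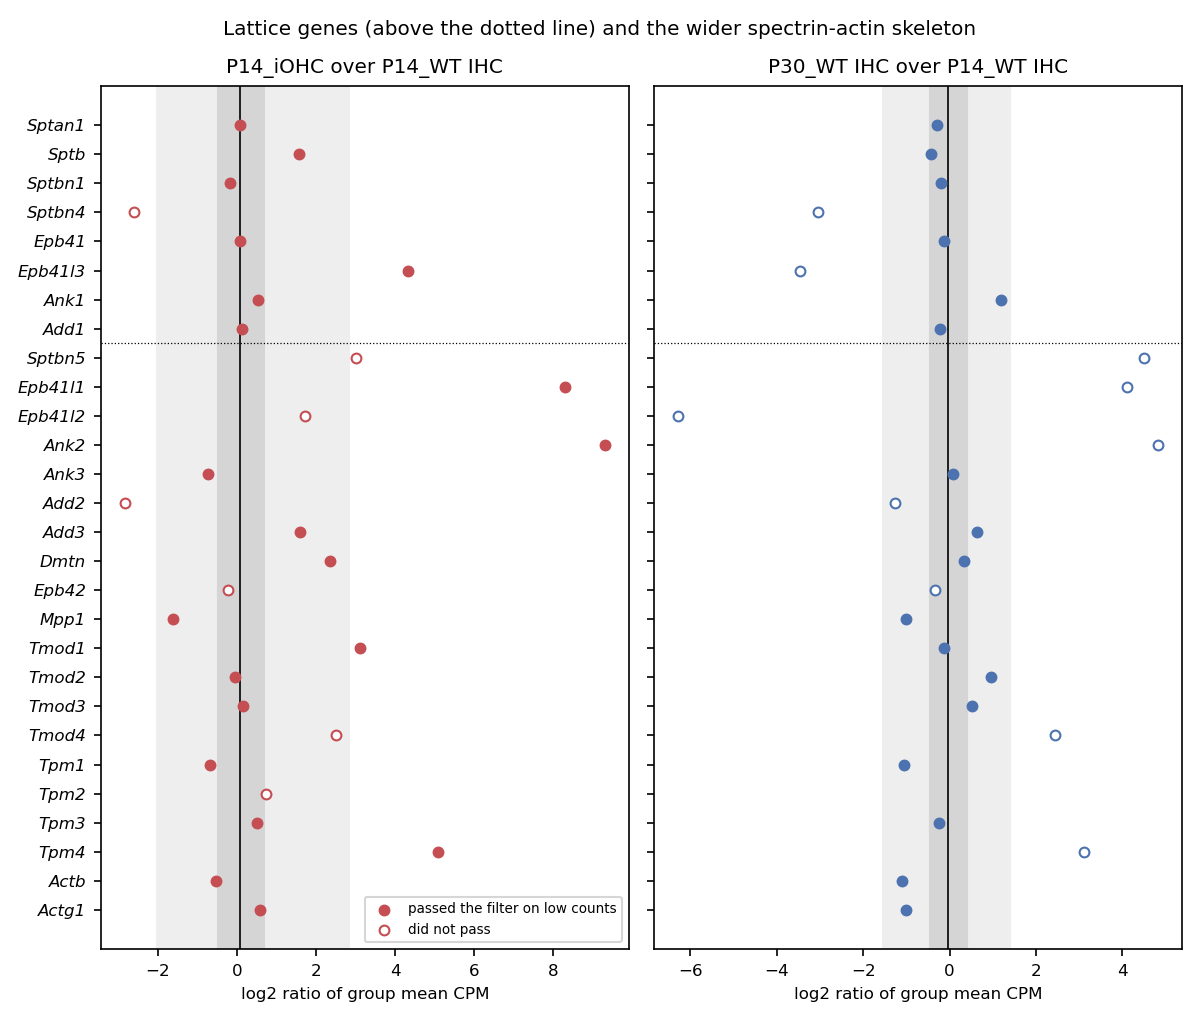
Log2 ratio of group mean CPM for the 8 lattice genes, above the dotted line, and 20 further skeleton genes, in P14_iOHCs over P14_WT IHCs (left) and P30_WT IHCs over P14_WT IHCs (right). The line is the median of all genes considered, the dark and light bands hold the middle 50% and 90% of them, and open points did not pass the filter on low counts. On the left *Sptb* (1.58) and *Epb41l3* (4.33) lie to the right of the dark band while *Sptan1*, *Sptbn1*, *Epb41* and *Add1* lie inside it.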

How the data were processed

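Single Tdtomato+ cells were sequenced after Smart-Seq HT amplification, and the deposited values are raw counts per gene and cell that the authors made with HISAT2 2.1.0 and HTSeq 0.10.0 (submitters' processing notes, which also name FastQC 0.11.9, Trimmomatic 0.39 and StringTie 1.3.5). Strand setting, annotation and the treatment of multi-mapping reads are not given in the sources used here. Without molecular identifiers, reads are not independent molecules, so intervals cover counting error only. P30_WT OHCs were not analysed here. A few genes of the lists are not reported here and were left out of the lists and family sums.

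Counts were divided by the total of each cell to give CPM, and by exon lengths of GENCODE M21 (53186 genes with a length) to give TPM. The 151 cells fall into 3 groups by their titles, and no 2 cells held identical counts. Because no label names a mouse, each group was 1 sample and no test was made. The study called genes with DESeq2 and a fold limit, and only its 4-fold limit was kept. The filter on low counts kept a gene that reached 5 counts in 10 or more cells of the comparison. Differences are log2 ratios of group mean CPM. Ratios against a group at or under 3 counts used these 3 counts as a floor. Shares of cells have exact (Clopper-Pearson) 95% intervals that treat cells as independent draws and leave out differences between mice, and ratios of summed counts have exact Poisson-based ones.

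With totals of 4326416 to 25035444, a floor of 3 counts in a cell is 0.12 to 0.693 CPM. Alternatives took other scalings (edgeR 4.0.16 TMM and DESeq2 1.42.0 size factors in R 4.3.3), other averages, no filter, either set of totals and fewer cells, and leaving out the cell of the highest value, and the list counts without the 14 P14_iOHCs of a high score, were chosen after seeing the data. Scripts ran in Python 3.11.15 (numpy 2.4.6, pandas 2.3.3, scipy 1.17.1, matplotlib 3.10.9) and were tested on simulated data with the seed 20220. Beside the 9 members, the text names from each list the genes past 4-fold, up to 3 of the highest level and those whose function is stated, and the 5 genes most and 3 least like *Slc26a5*. Members and lists were chosen with earlier results of these data known.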

Additional observations from a re-analysis of the deposited data

How the results depend on the processing

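No paired analysis was possible because the replicate numbers name single cells and the results come from no test. Of the 82 values of the main results under alternatives, 70 stayed within the spread or within 1.5 times the count and 12 moved. Of the 305 values of single genes, 271 stayed, 33 moved and 1 reversed. For log2 ratios the spread was the SD of log2(CPM + 1) over cells, at day 14 2.01 for *Sptan1* and 2.33 for *Epb41*. Reversed was used only for genes more than 2-fold apart in the main result. Changes of sign in *Sptan1* and *Epb41* were therefore not counted as reversed. These counts do not show whether small ratios kept their direction. Past 4-fold were 1895 genes in P14_iOHCs over P14_WT IHCs, against 4326 past 2-fold, 3267 by medians, 814 by means of log2(CPM + 1), 9069 without a filter and 804 in the lower set of totals. In P30_WT IHCs over P14_WT IHCs the 688 genes became 2484, 2612, 239 and 7041 in the first 4 of these. By medians 23.5% of the latter calls were higher and by means of log2(CPM + 1) 14.6%, against 42.4%. The log2 ratio of *Slc26a5* (12.94) was 18.06 by medians, where P14_WT IHCs stand at the floor, 9.78 by means of log2(CPM + 1), and 13.92 without the highest P14_WT IHC. For *Epb41l3* in P30_WT IHCs it was -3.45, and 0.27 in the lower set. Medians moved the median of all genes by -0.16 and -0.32 in the 2 comparisons. The log2 ratio of *Sptb* stayed between 0.87 and 1.91. That of *Sptan1* ran from -0.99 to 0.50 and that of *Epb41* from -0.89 to 0.44. On counts thinned to 1 total per cell the log2 ratio of *Sptbn4* was -2.56 against -2.61. The cause of these differences was not tested.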
